A study of Mus musculus with 12 samples.

Results

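Brown adipose tissue of SIRT1-transgenic and wild-type mice was compared on the 6 arrays of the series whose column numbers form the lower of 2 number ranges, 3 of each genotype. They are 6 of 12 arrays in all, and they were chosen by the number and the genotype in the column name, not by any measured value. Both genotypes were 3 months old on a C57Bl/6N background, and per the labels the transgenic mice were SIRT1Tg/Tg (SIRT1tg below) and the others wild type (WT). Which promoter drives the transgene, what part of the gene it carries and how many founder lines were used is not stated in the labels, and they name no treatment. The arrays are named WT 1 to 3 and SIRT1tg 1 to 3 by rising column number, and these names do not correspond to the replicates numbered in the labels. Within this range every SIRT1tg array has a lower number than every WT array, and the same order holds within the other, high range. The meaning of the number is not given, so genotype and the order of these numbers cannot be told apart in either range. The labels do not say that each sample came from its own animal, so p-values measure only the spread between these samples.

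SIRT1 is an NAD+-dependent protein deacetylase that acts on histones and on transcription regulators such as PGC-1alpha, FOXO proteins and the clock protein BMAL1. Brown fat burns fatty acids and glucose and releases the energy as heat through UCP1, a proton channel of the mitochondrial inner membrane. The comparison asks which transcripts of this tissue differ when SIRT1 is overexpressed.

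Biotin-labelled cRNA from total RNA was read on Illumina bead arrays of 25697 probes, of which 45.4% to 46.6% were detected on each of the 6 arrays. After background correction and quantile normalisation, 8226 genes had a probe that was detected on at least 3 of the 6, and their normalised log2 signals correlated between pairs of arrays at r = 0.9743 to 0.9877 across genes. The tissue label held against its markers. Of 19 brown adipocyte markers on the array, 16 to 18 were detected on each array, and Ucp1, Cidea, Cox8b and Lpl all lay at log2 signals of at least 13.4. Some arrays stood apart in other ways. WT 1 and WT 2 detected 26 and 24 of 30 skeletal muscle markers, and the other arrays 9 to 11. WT 3 had the highest signals of the macrophage markers, with a mean centred log2 signal of 0.70 over 21 genes against -0.50 to 0.11 on the other arrays. It was also the array with the most genes more than 1 log2 unit from the mean of the other 2 arrays of its genotype, at 165 against 40 to 113. Among the genes high on WT 3 were the acute-phase genes Lcn2, at 7.89 against 4.39 to 5.12, and Serpina3n, at 9.31 against 5.13 to 5.95, both chosen after their values were seen. No array of the SIRT1tg group was muscle-rich, so the muscle signal moved with genotype. The mean centred log2 signal of 12 muscle markers was 1 and 1.44 on WT 1 and WT 2. It was -0.76 on WT 3 and -0.50 to -0.60 on the SIRT1tg arrays. The part of muscle in the other differences was not tested beyond 2 fits, without WT 1 and WT 2 and with the muscle signal as a covariate. Both compare the SIRT1tg arrays mostly with WT 3, so the covariate fit cannot separate muscle from what is particular to WT 3.

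Across all genes the genotype difference was small. The log2 fold change, SIRT1tg minus WT, had a median of 0.00227 over the 8226 genes, and the central 90% of genes lay between -0.39 and 0.41. The 95% interval of a single gene reached 0.36 on the log2 scale to either side at the median gene, so most differences of that size or less could not be told from 0. In 607 genes (7.38%) every SIRT1tg array lay above every WT array, and in 643 (7.82%) every one lay below, together 15.2%. Of these, 90 (1.09%) were at least 1.5-fold higher and 55 (0.669%) at least 1.5-fold lower, and 15 (0.182%) and 11 (0.134%) were at least 2-fold higher and lower. Where a gene had further detected probes these often did not separate the groups: of 189 other probes of the higher genes 141 had the same sign and 43 (22.8%) the same separation, and of 207 of the lower genes 161 and 39 (18.8%). A gap of over 0.5 log2 units between the groups occurred in 7 genes higher and 8 genes lower in SIRT1tg. By limma's moderated test 1 gene (0.0122%), Sfxn1, passed a Benjamini-Hochberg adjusted p of 0.05, and 795 genes (9.66%) had an unadjusted p under 0.05. An exact two-sided permutation test of 3 against 3 arrays has 20 splits and cannot go below p = 0.1, so no single gene could pass 0.05 by it.

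**Figure D1:**
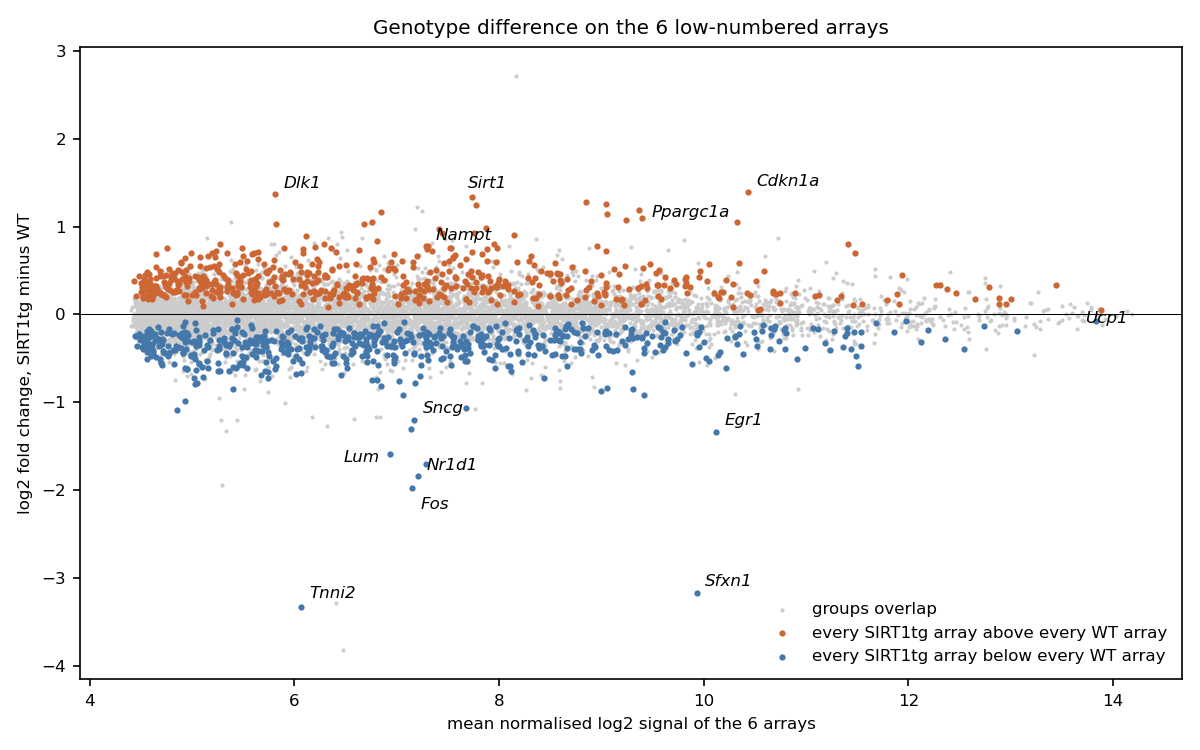
Log2 fold change, SIRT1tg minus WT, of 8226 genes (vertical axis) against their mean normalised log2 signal on the 6 arrays (horizontal axis); the 607 orange and 643 blue genes are those whose groups did not overlap in the higher and lower direction. Sfxn1 at -3.16 lies far below other genes of its signal, and most non-overlapping genes differ by less than 1 log2 unit.

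The targeted gene was higher in every SIRT1tg array. Sirt1 had normalised log2 signals of 7.00, 7.27 and 7.19 on WT 1 to 3 and of 8.60, 8.21 and 8.39 on SIRT1tg 1 to 3. The groups were 0.94 log2 units apart at their nearest arrays, the widest gap of any gene higher in SIRT1tg. The fold was 2.37, with a log2 fold change of 1.25 ± 0.15 (SE, n = 3 and 3) and a 95% interval of 0.91 to 1.59. Its limma adjusted p was 0.0755 and missed the threshold. A single Sirt1 probe was measured, and it is unknown here whether the transgene carries the stretch it reads. Dnajc12, a co-chaperone gene next to Sirt1 in the RefSeq gene order on chromosome 10, was also higher without overlap, at 5.38, 5.39 and 5.17 on the WT arrays and 6.05, 5.76 and 5.55 on the SIRT1tg arrays (log2 fold change 0.47, 95% interval 0.11 to 0.83). Herc4, the ubiquitin ligase gene on the other side, overlapped at 0.10 (-0.20 to 0.41). The other 4 of the 6 nearest genes had no detected probe or were detected on 1 array at most.

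Among genes detected on all 6 arrays the largest difference was that of Sfxn1, which encodes sideroflexin 1, a carrier of serine across the mitochondrial inner membrane that feeds one-carbon metabolism. Sfxn1 lay at 11.20, 11.38 and 11.96 on the WT arrays and at 8.52, 8.61 and 7.93 on the SIRT1tg arrays. The gap between the nearest arrays of the groups was 2.597 log2 units, against 0.96 for Lhfpl2, the next widest among genes lower in SIRT1tg. Sfxn1 fell 8.96-fold (log2 fold change -3.16 ± 0.24 SE, n = 3 and 3, 95% interval -3.71 to -2.62, limma adjusted p = 0.00358). The second detected probe of Sfxn1 gave -3.07 ± 0.21, with 11.26, 11.22 and 11.77 in WT and 8.28, 8.69 and 8.05 in SIRT1tg. Both probes kept the groups far apart. Of its 6 neighbours on chromosome 13, Thoc3, a subunit of an mRNA export complex, was lower without overlap at -0.32 (95% interval -0.63 to -0.01), and Hrh2, a histamine receptor, overlapped at -0.14. The remaining neighbours were not detected or had no probe. Among 11 measured genes of the sideroflexins and serine metabolism, 3 were lower without overlap, against 7.82% of all genes, and none higher, and the median was -0.15 (-0.07 without SIRT1tg 1, and -0.39 with the muscle signal as a covariate). These were Sfxn1, Tyms (thymidylate synthase, -0.64) and Phgdh (the first enzyme of serine synthesis, -0.56), while Sfxn4 (0.08), Sfxn5 (-0.15) and Shmt2, the mitochondrial serine hydroxymethyltransferase (0.09), overlapped.

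The promoters of Sirt1 and Sfxn1, whose signals separated the genotypes most widely in each direction, and of Nfil3 and Fos, from the clock and immediate early genes described below, are shown as the 250 bases before the annotated start in RefSeq GRCm38.p6. A match was found for 98 of the 120 named genes. Capitals mark 3 motifs sought on both strands, namely CACGTG (the E-box bound by CLOCK and BMAL1 and by MYC-family factors), TAGGTCA (the core of the element shared by REV-ERB and ROR receptors) and TGACG (the core of the cyclic AMP response element). In all 32851 promoters of the same window they occurred in 6.02%, 2.23% and 17.8%. The Sirt1 window (chr10:63339036-63339285, minus strand) held CACGTG at 2 places, and TGACG once, overlapping the second of them. That of Sfxn1 (chr13:54071595-54071844, plus strand) held none of the 3. In Nfil3 (chr13:52981040-52981289, minus strand) TAGGTCA and TGACG each occurred once, both on the reverse strand, and in Fos (chr12:85473640-85473889, plus strand) TGACG occurred at 2 places. The windows of 4 further genes were searched and are not printed: Nr1d1 and both windows of Arntl held none of the 3 motifs, and Dlk1 and Junb held TGACG once each. The matches describe the letters of the windows only.
Sirt1: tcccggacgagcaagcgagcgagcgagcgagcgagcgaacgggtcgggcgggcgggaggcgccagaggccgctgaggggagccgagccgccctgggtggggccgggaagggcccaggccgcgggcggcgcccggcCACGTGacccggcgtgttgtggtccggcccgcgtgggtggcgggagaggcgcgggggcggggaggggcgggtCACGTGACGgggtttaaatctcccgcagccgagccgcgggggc
Sfxn1: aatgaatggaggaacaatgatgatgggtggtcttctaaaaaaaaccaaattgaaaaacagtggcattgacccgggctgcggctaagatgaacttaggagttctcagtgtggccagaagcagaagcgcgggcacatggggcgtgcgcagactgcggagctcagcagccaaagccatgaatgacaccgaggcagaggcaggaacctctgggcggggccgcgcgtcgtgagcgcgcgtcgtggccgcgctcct
Nfil3: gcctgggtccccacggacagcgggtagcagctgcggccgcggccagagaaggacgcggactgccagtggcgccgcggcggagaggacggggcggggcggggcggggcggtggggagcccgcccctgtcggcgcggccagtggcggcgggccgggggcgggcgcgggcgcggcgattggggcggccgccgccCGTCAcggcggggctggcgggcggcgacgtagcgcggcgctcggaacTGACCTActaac
Fos: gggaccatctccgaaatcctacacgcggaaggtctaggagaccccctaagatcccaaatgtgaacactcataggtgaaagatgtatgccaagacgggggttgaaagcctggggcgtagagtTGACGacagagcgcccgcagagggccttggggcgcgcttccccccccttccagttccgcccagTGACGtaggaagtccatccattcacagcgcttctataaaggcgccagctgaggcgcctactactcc

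The 14 genes that were highest in SIRT1tg without overlap, among those detected on every SIRT1tg array, differed by 2.04-fold to 2.63-fold. In order they were Cdkn1a, Dlk1, Fam117a, Cish, Pnkd, Sirt1, Ppargc1a, Usp2, Aacs, Nfil3, Tsc22d3, Ccn2, Ppp1r3c and Rbp4. None passed the adjusted threshold, and their limma adjusted p lay between 0.0755 and 0.451. Dlk1, which encodes a preadipocyte surface protein that holds back fat cell formation, was at 4.92, 5.38 and 5.08 in WT and at 6.05, 6.59 and 6.86 in SIRT1tg. Its log2 fold change was 1.37 ± 0.22 (SE, n = 3 and 3; adjusted p = 0.223), and the nearest arrays of the groups were 0.67 apart. Cdkn1a, which encodes the cell-cycle inhibitor p21, lay at 9.11, 9.67 and 10.42 in WT and at 11.38, 10.71 and 11.29 in SIRT1tg, a log2 fold change of 1.40 ± 0.32. Its other detected probes gave 1.35 and 1.26. Here the WT arrays themselves spread over more than 1 log2 unit, and WT 3 came within 0.29 of the lowest SIRT1tg array.

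Tsc22d3, the glucocorticoid-induced leucine zipper gene, had the smallest standard error of these genes after Sirt1. It lay at 8.55, 8.96 and 8.59 in WT and at 9.90, 9.51 and 9.93 in SIRT1tg (log2 fold change 1.08 ± 0.17, adjusted p = 0.223), and its second probe gave 0.78 ± 0.09. Pnkd separated the groups on its main probe (1.25), but its other probes, at signals of 4.49 and 4.60, gave 0.25 and 0.02 and overlapped. Cish, a suppressor of cytokine signalling through STAT5, was at 8.37, 8.25 and 8.02 against 10.16, 8.96 and 9.35 (1.28 ± 0.27). Ppargc1a, which encodes the coactivator PGC-1alpha of mitochondrial biogenesis, was at 8.60, 8.86 and 8.86 in WT and at 11.14, 9.17 and 9.57 in SIRT1tg. Its log2 fold change of 1.18 ± 0.43 rested on SIRT1tg 1, and without that array it was 0.59. Fam117a likewise went from 1.34 to 0.73 without SIRT1tg 1, which stood at 9.61 against 7.84 and 7.78. Aacs, an acetoacetyl-CoA ligase of the cytosol, went from 1.14 to 0.75 without WT 1. Rbp4, the retinol carrier of plasma, had 5.16, 5.52 and 5.23 against 5.98, 6.85 and 6.18 (1.03 ± 0.22), and Ppp1r3c, which targets protein phosphatase 1 to glycogen, had a gap of only 0.03 between WT 1 and SIRT1tg 1.

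**Figure D2:**
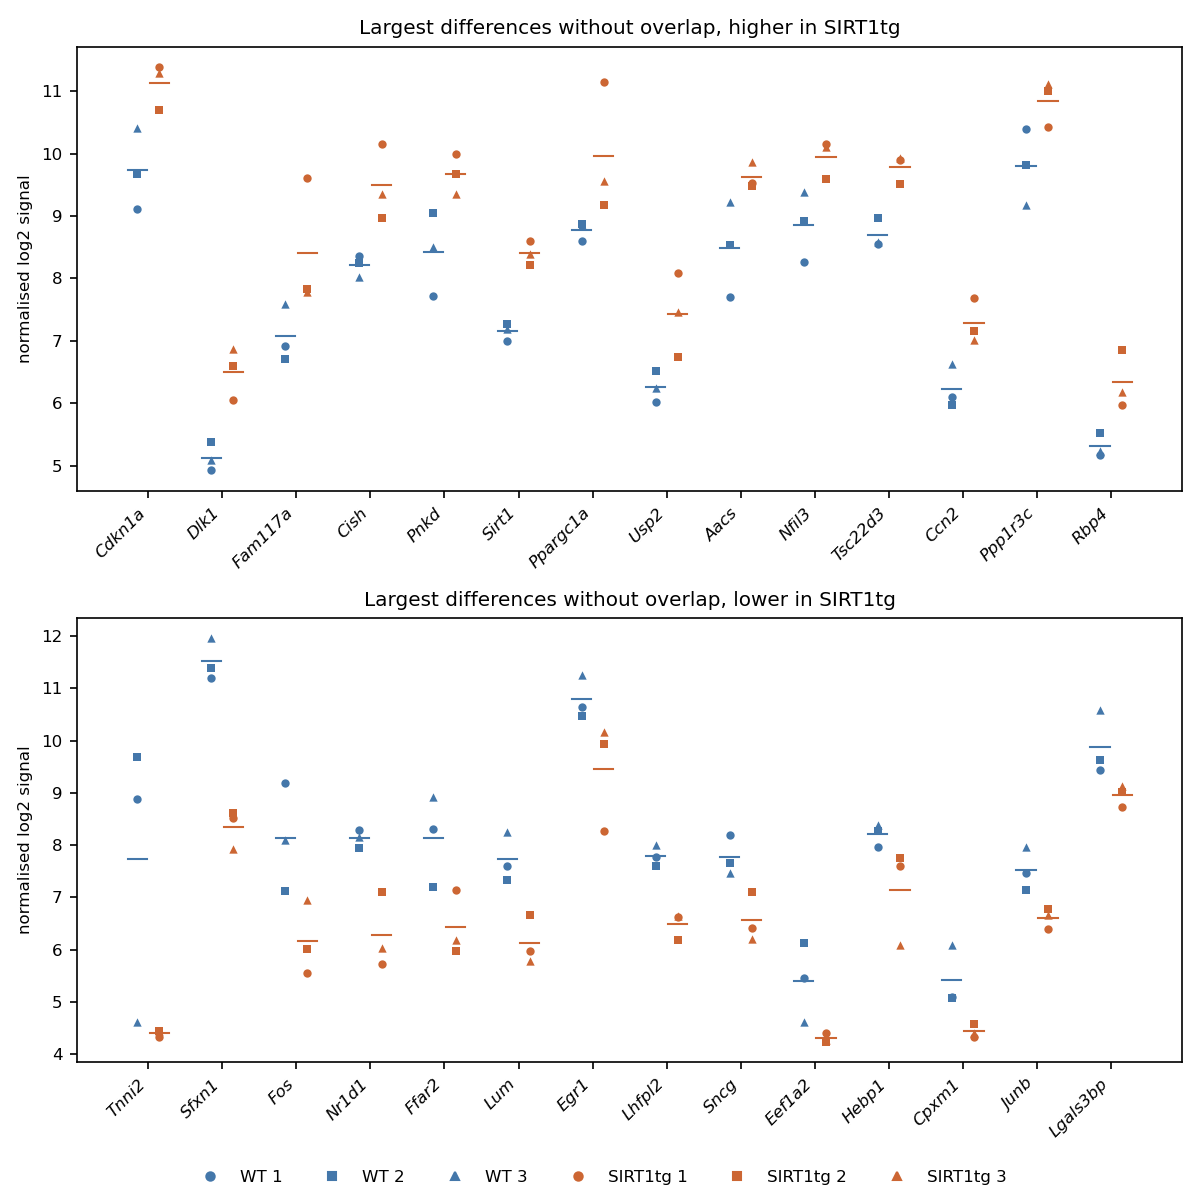
Normalised log2 signals (vertical axis) of the 14 highest and the 14 lowest genes without overlap, with 1 point per array, blue for WT and orange for SIRT1tg, the shape naming the array and the short lines the group means of 3. The Sirt1 and Tsc22d3 points cluster by genotype, Ppargc1a and Fam117a have 1 SIRT1tg array far above the others, and Tnni2 is high on WT 1 and WT 2 while WT 3 is at 4.63.

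The 14 lowest genes without overlap, among those detected on every WT array, were Tnni2, Sfxn1, Fos, Nr1d1, Ffar2, Lum, Egr1, Lhfpl2, Sncg, Eef1a2, Hebp1, Cpxm1, Junb and Lgals3bp. Apart from Sfxn1 none passed, with limma adjusted p of 0.11 to 0.453. Tnni2, a troponin of fast skeletal muscle, was at 8.88 and 9.68 on the muscle-rich WT 1 and WT 2, at 4.63 on WT 3, and not detected on any SIRT1tg array, so that it was at least 9.16-fold lower. Eef1a2, an elongation factor of muscle and neurons, was likewise not detected in SIRT1tg and at least 1.82-fold lower. Both bounds set the WT mean against the lowest signal among detected probes. Without WT 3, Tnni2 passed the threshold, together with Acta1, Atp2a1, Cox6a2 and Rpl3l, all genes of striated muscle and 5 in all besides Sfxn1.

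Lhfpl2, which encodes a tetraspan membrane protein, was the most evenly separated of the others, with 7.77, 7.60 and 7.99 in WT and 6.63, 6.18 and 6.65 in SIRT1tg (log2 fold change -1.30 ± 0.17, adjusted p = 0.11). Lum encodes lumican, a collagen-binding proteoglycan of fibroblasts, and lay at 7.59, 7.33 and 8.26 against 5.97, 6.66 and 5.78 (-1.59 ± 0.28). Sncg, gamma-synuclein, which is abundant in white adipocytes and sensory neurons, was at 8.18, 7.65 and 7.47 against 6.42, 7.10 and 6.20 (-1.20 ± 0.26). Its second probe, at a mean signal of 5.25, gave -0.31 and overlapped. Ffar2, a receptor for short-chain fatty acids, differed by -1.70 ± 0.43, but SIRT1tg 1 at 7.14 came within 0.05 of WT 2 at 7.19. Hebp1, a haem-binding protein, was at -1.06 and went to -0.53 without SIRT1tg 3. Lgals3bp, a secreted galectin-binding glycoprotein, was at -0.91 and went to -0.57 without WT 3.

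Clock genes differed in both directions. In the mammalian clock, BMAL1 (Arntl) and CLOCK drive Per, Cry and Nr1d1, and REV-ERBalpha, the product of Nr1d1, represses Arntl and Nfil3. Nr1d1 was lower in every SIRT1tg array, with 8.29, 7.95 and 8.15 in WT and 5.73, 7.10 and 6.03 in SIRT1tg (log2 fold change -1.84 ± 0.31, adjusted p = 0.273). The second probe of Nr1d1 gave -1.72 ± 0.19. Without SIRT1tg 2, the nearest of the SIRT1tg arrays, Nr1d1 passed the threshold at -2.25 (limma adjusted p = 0.00826). Arntl was higher, at 5.19, 6.12 and 6.35 against 6.57, 6.55 and 6.95 (0.80 ± 0.28), and so was Nfil3, at 8.26, 8.92 and 9.38 against 10.15, 9.60 and 10.11 (1.10 ± 0.27). Arntl went to 0.46 without WT 1. Bhlhe40, a transcription repressor of the clock, was lower without overlap at -0.46 ± 0.15. Per2 (1.22), Per1 (0.85), Nr1d2 (-0.66) and Dbp (-1.19) overlapped on their main probes, with Dbp at 9.03 on WT 1 against 5.79 to 6.73 on the other WT arrays. The second probe of Per1, at a signal of 6.07, gave 0.85 and was higher without overlap, and that of Per2 (1.02) overlapped. Of 15 measured clock genes, 2 were higher and 2 lower without overlap, against 7.38% and 7.82% of all genes, and the median was 0.02. The labels do not state the time of day at which the tissue was taken.

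Immediate early genes, which are transcribed within minutes of a stimulus, were mostly lower. Of 17 measured genes 11 had a log2 fold change below 0, with a median of -0.42, and 4 were lower and 1 higher without overlap. Over all genes 49.6% lay below 0 and 7.82% were lower and 7.38% higher without overlap. Without SIRT1tg 2 the median of the list was -0.20. Its mean centred log2 signal was 0.47, -0.17 and 0.14 on the WT arrays and 0.23, -0.47 and -0.205 on the SIRT1tg arrays. The genotypes therefore overlapped over the list, with SIRT1tg 1 above WT 2 and WT 3. Fos was at 9.20, 7.12 and 8.11 in WT and at 5.55, 6.01 and 6.94 in SIRT1tg (log2 fold change -1.97 ± 0.50, adjusted p = 0.365). The WT arrays differed among themselves by over 2 log2 units. Egr1 lay at 10.63, 10.47 and 11.25 against 8.26, 9.92 and 10.17 (-1.33 ± 0.45), and without SIRT1tg 1 it was -0.74. Junb (-0.92 ± 0.21) and Egr2 (-0.55 ± 0.13) were the other members lower without overlap. Ccn2, connective tissue growth factor, was the member higher without overlap, at 6.10, 5.97 and 6.63 against 7.69, 7.16 and 7.02 (1.06 ± 0.23).

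Glucocorticoid-responsive genes leaned the other way. Of 17 measured genes 14 lay above 0, against 50.4% of all genes, with a median of 0.38, and 4 were higher without overlap, against 7.38% of all genes, and none lower. These were Cdkn1a and Tsc22d3 as above, Glul, glutamine synthetase, at 5.18, 4.97 and 5.18 against 5.46, 6.07 and 6.05 (0.75 ± 0.19), and Klf9, a zinc finger factor induced by glucocorticoid, at 0.38 ± 0.14. Fkbp5 (0.65), a classic target, overlapped, with 7.08 on WT 3 against 4.43 and 5.42 on the other WT arrays. Without WT 1 the median of the list was 0.16, without WT 1 and WT 2 it was 0.06, and with the muscle signal as a covariate 0.13.

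**Figure D3:**
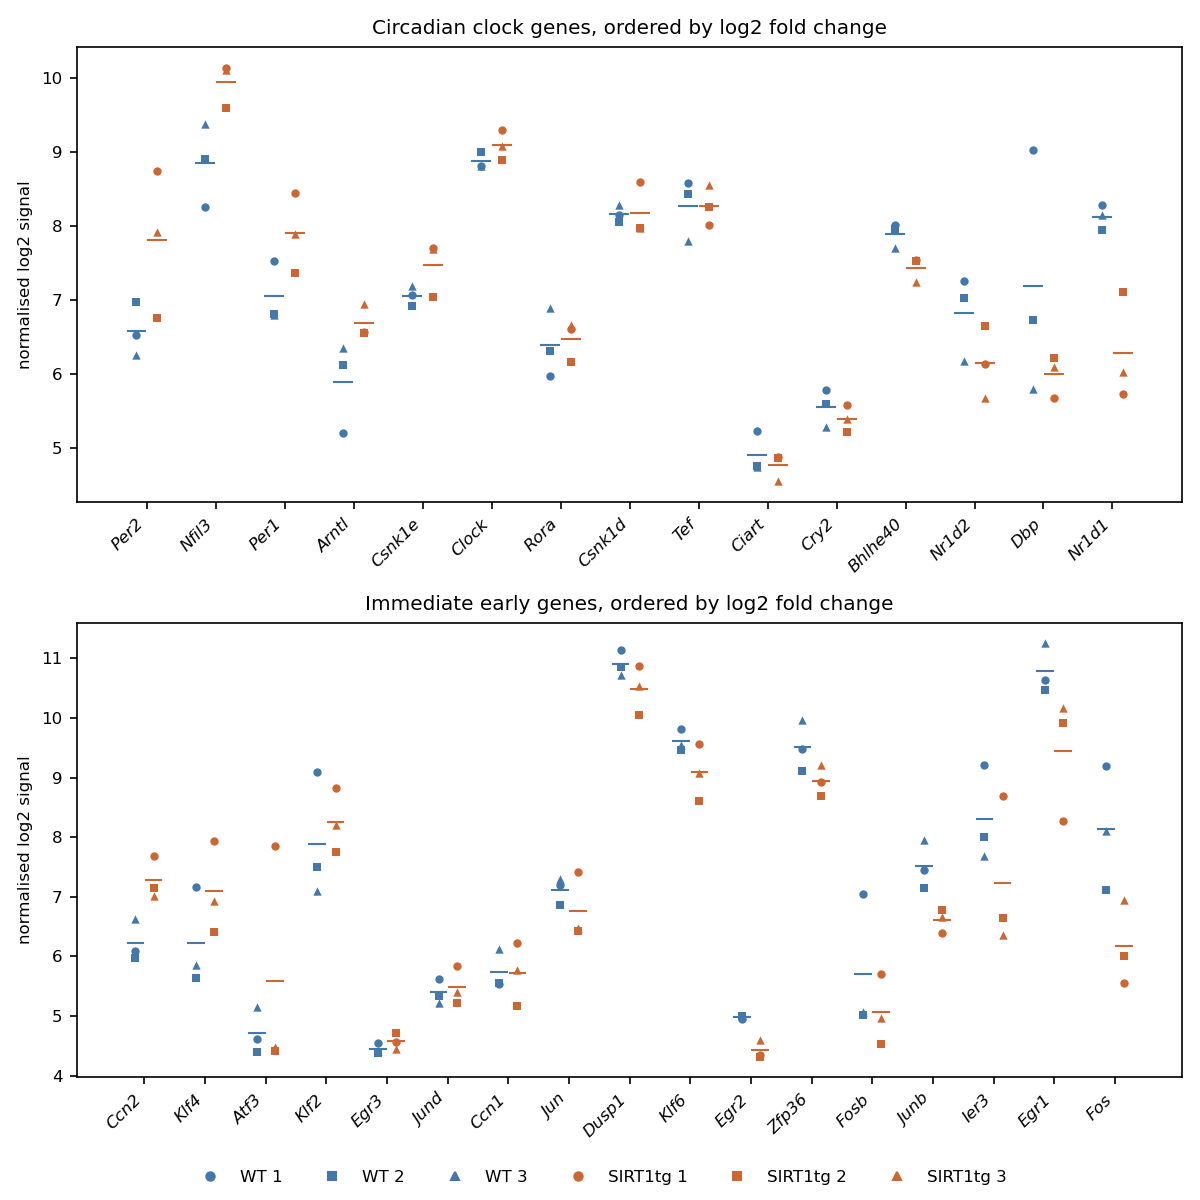
Normalised log2 signals (vertical axis) of the 15 measured clock genes and the 17 measured immediate early genes, ordered by log2 fold change, with 1 point per array, blue for WT and orange for SIRT1tg, and lines at the group means of 3. Nr1d1 at the right end of the upper row and Nfil3 near its left end are separated in opposite directions, while Fos and Egr1 are low in SIRT1tg with wide spread among the arrays.

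Genes of brown fat identity differed little. Ucp1 was at 13.68, 13.78 and 13.72 in WT and at 13.42, 13.59 and 13.68 in SIRT1tg, groups that overlapped, with a log2 fold change of -0.16 and a 95% interval of -0.46 to 0.13. Cidea, a lipid droplet protein, lay at -0.06 (-0.34 to 0.22), Adipoq, adiponectin, at -0.18 (-0.47 to 0.11), Pparg, the master regulator of fat cells, at 0.11 (-0.25 to 0.48) and Lpl, lipoprotein lipase, at -0.02 (-0.29 to 0.26). Ucp1, Cidea and Lpl lay near the top of the signal scale, and Lpl was at 14.02 on all 3 SIRT1tg arrays. Quantile normalisation can hide differences among genes this bright, so their small fold changes do not show that the transcripts were unchanged. Elovl3, a fatty acid elongase of brown fat, could not be placed, since its 95% interval ran from -1.60 to 1.78. Of 24 measured thermogenesis genes, Ppargc1a and Cebpb (0.70 ± 0.18), a transcription factor of adipocyte differentiation, were the 2 higher without overlap, near the 7.38% of all genes, and none was lower. The median was 0.07, and it ran from -0.02 without SIRT1tg 3 to 0.15 without SIRT1tg 2. Of 19 regulators of adipocyte differentiation, a list of transcription factors to which Dlk1 was added, 5 were higher without overlap, against 7.38% of all genes, and none lower. Besides Dlk1, Cebpb and Klf9 these were Foxo1, a target of SIRT1 and of insulin signalling (7.75, 7.63 and 7.17 against 8.59, 8.05 and 8.14, 0.74 ± 0.20), and Gata2, which holds preadipocytes back from differentiating (7.09, 6.89 and 6.69 against 7.66, 7.16 and 7.46, 0.54 ± 0.17).

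Of the NAD+ enzymes, Nampt, which is rate-limiting in NAD+ salvage from nicotinamide, lay at 7.20, 7.01 and 6.54 in WT and at 7.64, 7.78 and 7.66 in SIRT1tg (log2 fold change 0.78 ± 0.18, adjusted p = 0.365), and its second probe gave 0.69 ± 0.08. Nmrk1, a nicotinamide riboside kinase, was higher without overlap at 0.40 ± 0.14. The other sirtuins that were measured, Sirt2 (0.14), Sirt3 (0.12), Sirt5 (-0.20) and Sirt7 (-0.20), all overlapped. The list of sirtuins and NAD+ enzymes held 3 genes higher without overlap of 14, Sirt1 itself among them, and none lower, against 7.38% and 7.82% of all genes.

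Among metabolic lists those of mitochondrial genes moved by small amounts, and those of glucose use and of fatty acid synthesis by more. The 33 measured genes of respiratory complex I had a median of 0.03, with 2 higher and 3 lower without overlap, a share no larger than the 15.2% of all genes. In the 15 genes of the ATP synthase the median was 0.03, with 2 in each direction, and in the 20 of mitochondrial fatty acid oxidation it was 0.00236, with Hadhb (0.31), a subunit of the trifunctional protein, higher and Acadl (-0.45), a long-chain acyl-CoA dehydrogenase, and Ucp3 (-0.32) lower. The other probes of Acadl, at signals of 9.94 and 5.26, gave 0.14 and 0.18, and that of Ucp3, at 7.22, gave -0.05, and all 3 overlapped. Of 21 genes of glucose use and glycogen 4 were higher without overlap, against 7.38% of all genes, and none lower, and the median of 0.19 fell to 0.01 without SIRT1tg 2. Hk2, the hexokinase of muscle and fat, was at 10.78, 10.85 and 11.39 against 12.07, 11.70 and 11.65 (0.80 ± 0.20), and Ppp1r3c, Gapdh (0.33) and Pygb (0.23) were the others, though the second probe of Gapdh (0.38) overlapped. Of 19 genes of fatty acid and triglyceride synthesis 16 lay above 0, with a median of 0.32, but none separated the groups. Fasn, fatty acid synthase, was at 6.13, 7.34 and 7.36 against 6.81, 8.63 and 7.81. Without WT 1 and WT 2 the median of that list was 0.00783. Insig1, which holds SREBP in the endoplasmic reticulum, was higher without overlap on its main probe (7.33, 6.95 and 6.66 against 7.60, 7.70 and 7.81, 0.72 ± 0.18). Its other probes, at signals of 6.64 and 6.71, gave 0.32 and 0.23 and overlapped. Mfsd2a, a transporter of lysophospholipids, had the largest positive log2 fold change of all genes, at 2.72 ± 1.12, but its arrays overlapped, with 4.57, 6.88 and 8.98 in WT and 11.06, 7.50 and 10.02 in SIRT1tg. It was chosen after its values were seen.

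Hspb8, a small heat shock protein, was higher without overlap at 0.78 ± 0.25, as were Dnajb4 (0.55) and Chordc1 (0.36), and Hspb6 was lower (-0.38), of 20 heat shock genes. Of all genes 7.38% were higher and 7.82% lower without overlap. The second probe of Dnajb4, at a signal of 4.84, gave 0.08 and overlapped. Timp4, an inhibitor of matrix metalloproteinases that is abundant in fat, lay at 7.36, 7.62 and 7.17 in WT and at 8.15, 8.57 and 8.38 in SIRT1tg (log2 fold change 0.98 ± 0.17, adjusted p = 0.273). The groups of Timp4 were 0.53 apart. Adam12, a membrane metalloprotease, was also higher at 0.55 ± 0.14. These were the 2 higher without overlap of 16 measured TIMP and metalloproteinase genes, against 7.38% of all genes, and none was lower. Of the 16 genes 9 lay below 0, with a median of -0.11.

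Genes of matrix, macrophages and the interferon response were mostly lower, and endothelial genes mostly higher. In bulk tissue fewer cells of a type and less RNA per cell cannot be told apart. Of 25 measured interferon-stimulated genes 23 lay below 0, against 49.6% of all genes, with a median log2 fold change of -0.29. Oasl2 (-0.47), Tap1 (-0.32), Parp14 (-0.27) and Mx2 (-0.25) were lower without overlap, against 7.82% of all genes, and none was higher. The mean centred log2 signal of the list was -0.06, 0.30 and 0.19 on the WT arrays and -0.10, -0.16 and -0.18 on the SIRT1tg arrays, so every SIRT1tg array lay below every WT array, though WT 1 by little. Without WT 2 the median was -0.17.

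Of 21 fibroblast and matrix markers 18 lay below 0 (median -0.43) and 7 were lower without overlap, against 7.82% of all genes, with none higher. These were Lum, Gsn, an actin-severing protein (-0.75), Col1a1, a chain of type I collagen (-0.72), Serpinf1, a secreted serpin (-0.65), Dcn, the proteoglycan decorin (-0.48), Col6a2 (-0.25) and Sparc, a collagen-binding glycoprotein (-0.17). The second probes of Dcn (-0.32) and Sparc (-0.07) overlapped. The mean centred signal of the matrix markers was 0.07, -0.03 and 0.59 in WT and -0.24, -0.33 and -0.07 in SIRT1tg, with the summed linear signal of the 24 markers on the array between 9037 and 12255 in WT and between 7276 and 8200 in SIRT1tg. Without WT 3 the median was -0.21. Of 21 macrophage markers 17 lay below 0 (median -0.35). Aif1 (-0.61) and Fcgr1 (-0.35) were lower without overlap, a share near the 7.82% of all genes. Fcgr1 was dim, at 4.63 to 4.86 in WT, and was not detected on any SIRT1tg array. The summed signal of the 23 macrophage markers on the array was 6215, 8712 and 12354 in WT and 7493, 4977 and 8282 in SIRT1tg. Without WT 3 the median of the macrophage markers was -0.04. The macrophage difference therefore rested on WT 3, and that of the matrix markers did so in part.

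Of 20 endothelial markers 16 lay above 0, with a median of 0.13, and 5 were higher and 1 lower without overlap, against 7.38% and 7.82% of all genes. Sox18, a transcription factor of blood and lymph vessel endothelium, was at 7.71, 7.65 and 7.74 in WT and at 8.82, 8.15 and 8.85 in SIRT1tg (log2 fold change 0.91 ± 0.19). Its relative Sox17 was at 6.18, 5.92 and 5.75 against 6.69, 6.24 and 6.69 (0.59 ± 0.18), and the second probe of Sox17 gave 0.90 ± 0.12. Robo4 (0.57), Esam (0.42) and Ptprb (0.34), all surface proteins of endothelium, were the other members higher without overlap, and Nos3, endothelial nitric oxide synthase, was the member lower, at -0.16, though its other 2 probes overlapped (-0.15 and -0.16). Pecam1 and Cdh5, which mark endothelial cells in general, were at 0.00300 and 0.14 and overlapped. The summed signal of the 24 endothelial markers lay between 8648 and 9784 in WT and between 9987 and 11331 in SIRT1tg, and without SIRT1tg 3 the median was 0.07. On the high-numbered arrays 17 of these 20 lay above 0 (median 0.17), while 23 of 25 interferon-stimulated genes (-0.42), all 21 matrix markers (-0.46) and 20 of 21 macrophage markers (-0.51) lay below, where 53% of all genes did. Other lists did not keep their lean there. The median of the immediate early genes was 0.01, with 9 of 17 above 0, that of fatty acid and triglyceride synthesis was -0.17, with 6 of 19 above 0, and that of glucose use and glycogen was -0.175, with 2 higher and 4 lower without overlap, against 9.77% and 11.7% of all genes there. The glucocorticoid-responsive genes had a median of 0.20, with 12 of 17 above 0.

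Of the 30 skeletal muscle markers 12 passed the detection filter, 11 of which lay below 0, and 4 were detected on no array. Atp2a1, the calcium pump of fast muscle, was at 10.11, 10.61 and 4.43 in WT and at 4.64, 4.46 and 4.58 in SIRT1tg, so WT 3 lay with the SIRT1tg arrays. Lymphocyte, neutrophil and mast cell, nerve, red cell, mural cell and white adipocyte markers had medians between -0.06 and 0.05. In that order these lists held 6, 4, 6, 5, 12 and 9 measured genes. The members without overlap were Cd79b, a B cell receptor subunit (-0.62), Ngfr (-0.45), Slc4a1 (-0.79) and Sncg, all lower, and Myh11 (0.30), a smooth muscle myosin, higher. Of all genes 7.82% were lower and 7.38% higher without overlap. Hba-a1, the brightest haemoglobin gene, lay at 0.00213.

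**Figure D4:**
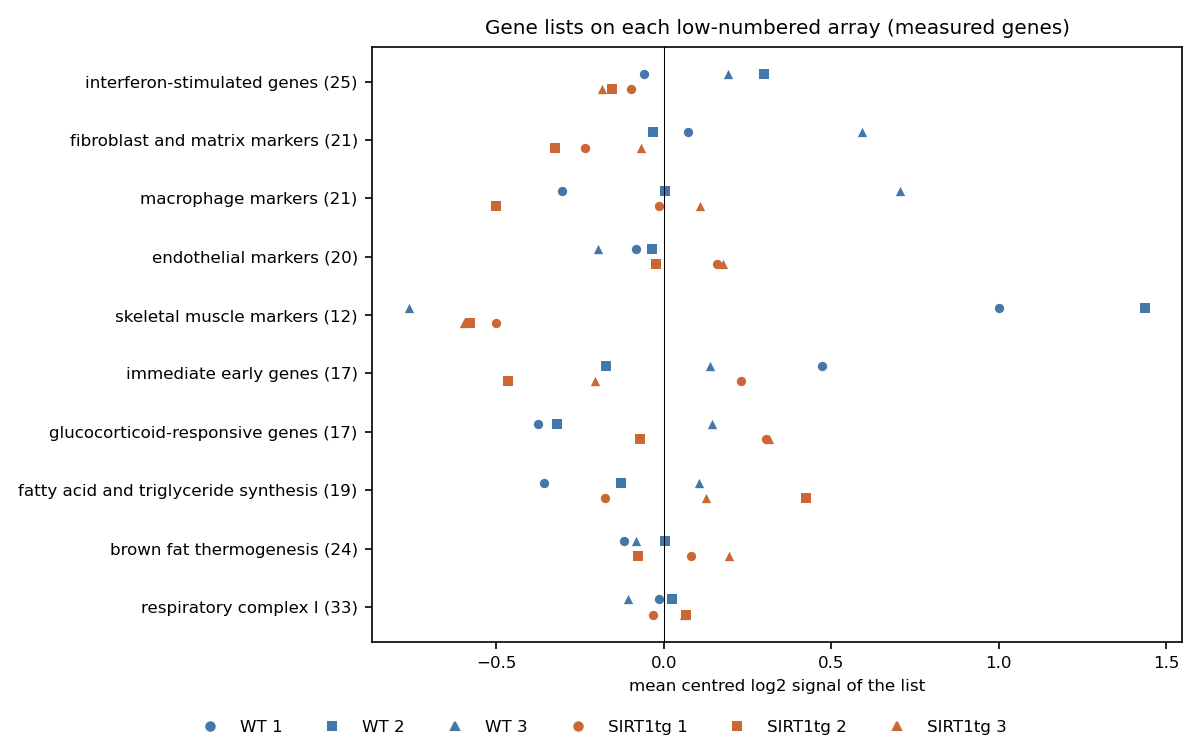
Mean over each list of the log2 signal centred per gene on its mean over the 6 arrays (horizontal axis, log2 units), with 1 point per array, blue for WT and orange for SIRT1tg, and the number of measured genes in brackets. Interferon, matrix and endothelial lists separate the genotypes by small gaps, WT 3 stands apart for macrophage and matrix markers, and WT 1 and WT 2 stand apart for muscle.

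The genes without overlap were taken from the low-numbered arrays alone, and the 6 arrays of the other number range were normalised among themselves. The genes named singly and the lists were chosen with results of all 12 arrays known, so their values in the high range are a description. Of the 607 genes higher without overlap in the low range, 402 (66.2%) had a log2 fold change above 0 in the high range, where 47% of all genes did. There 137 (22.6%) were again higher without overlap, against 9.77% of all genes, and 25 (4.12%) were lower without overlap. Of the 643 lower genes, 440 (68.4%) lay below 0, against 53% of all genes, and 120 (18.7%) were again lower without overlap, against 11.7%, while 28 (4.35%) were higher. The shares were larger among genes that differed by at least 1.5-fold. Of the 90 genes at least 1.5-fold higher 75 kept the sign (83.3%) and 39 were again higher without overlap (43.3%), and of the 55 at least 1.5-fold lower 44 kept it (80%) and 17 were again lower without overlap (30.9%). The median of these 90 genes was 0.71 in the low and 0.35 in the high range, and that of the 55 genes was -0.72 and -0.36. At 2-fold or more, 12 of 15 higher and 11 of 11 lower genes kept the sign, and 5 and 3 were again without overlap, with medians of 1.16 and 0.36 for the higher and -1.59 and -0.56 for the lower genes.

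Sirt1 and Sfxn1 separated the genotypes widely in the high range too, with Sirt1 at 6.42, 6.72 and 6.68 in WT and 8.24, 7.94 and 8.15 in SIRT1tg (log2 fold change with a 95% interval of 1.20 to 1.81) and Sfxn1 at 11.29, 11.40 and 11.33 against 8.57, 8.90 and 8.88 (95% interval -2.84 to -2.26). Dlk1 (1.04), Nampt (0.80), Ppargc1a (0.72), Ppp1r3c (1.10), Pnkd (0.66), Timp4 (0.56), Insig1 (0.65), Gata2 (0.61), Dnajc12 (0.61), Sox17 (0.62) and Sox18 (0.36) were again higher without overlap. Sncg (-1.82), Hebp1 (-0.98), Lgals3bp (-0.83) and Junb (-0.50) were again lower. Of the 14 highest genes 11 kept their sign, 5 were again higher without overlap and 1 was lower without overlap. Of the 14 lowest all 14 kept their sign and 5 were again lower without overlap. Of all genes 47% lay above 0 and 53% below in the high range, and 9.77% were higher and 11.7% lower without overlap. The medians went from 1.17 in the low range to 0.46 for the highest genes, and from -1.32 to -0.55 for the lowest.

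The clock genes Nr1d1 and Nfil3 overlapped there. Nr1d1 was at 7.39, 7.76 and 7.94 in WT and 7.37, 7.37 and 7.47 in SIRT1tg (-0.29 ± 0.15), and Nfil3 at 9.34, 8.97 and 9.31 against 9.19, 9.14 and 9.32 (0.01 ± 0.14). Fos (-0.32), Egr1 (-0.35), Tsc22d3 (0.20), Cish (-0.05) and Ccn2 (-0.29) also overlapped. The difference between the ranges had an unadjusted limma p of 0.00148 for Nr1d1, 0.00171 for Ccn2, 0.00327 for Cish and 0.00624 for Nfil3, none of which passed adjustment (adjusted p = 0.581 each). Ucp1 was higher without overlap in the high range (0.40), and its difference between the ranges, 0.56 with a 95% interval of 0.14 to 0.99, did not pass either (adjusted p = 0.616).

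Across all 8226 genes the genotype effect differed between the ranges at an adjusted p under 0.05 in 1 gene (0.0122%), Slc4a1, and at an unadjusted p under 0.05 in 607 (7.38%). Slc4a1 encodes band 3, the anion exchanger of red cells. It lay at 5.33, 5.72 and 5.24 in WT and at 4.63, 4.69 and 4.60 in SIRT1tg in the low range (-0.79 ± 0.16), and at 5.22, 4.95 and 4.67 against 6.21, 5.78 and 6.13 in the high range (1.09 ± 0.17). The genotypes were apart in both ranges, in opposite directions. The other red cell markers overlapped in the low range, while in the high range all 5 measured markers lay above 0 (median 0.41) and Hbb-bt, a haemoglobin chain, was also higher without overlap (1.26, against -0.03 in the low range). The part of red cell RNA in the Slc4a1 result was not tested. The difference was 1.89 on the log2 scale (95% interval 1.37 to 2.41, limma adjusted p = 0.0227). Without WT 2, SIRT1tg 1 or SIRT1tg 3 no gene passed this test.

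**Figure D5:**
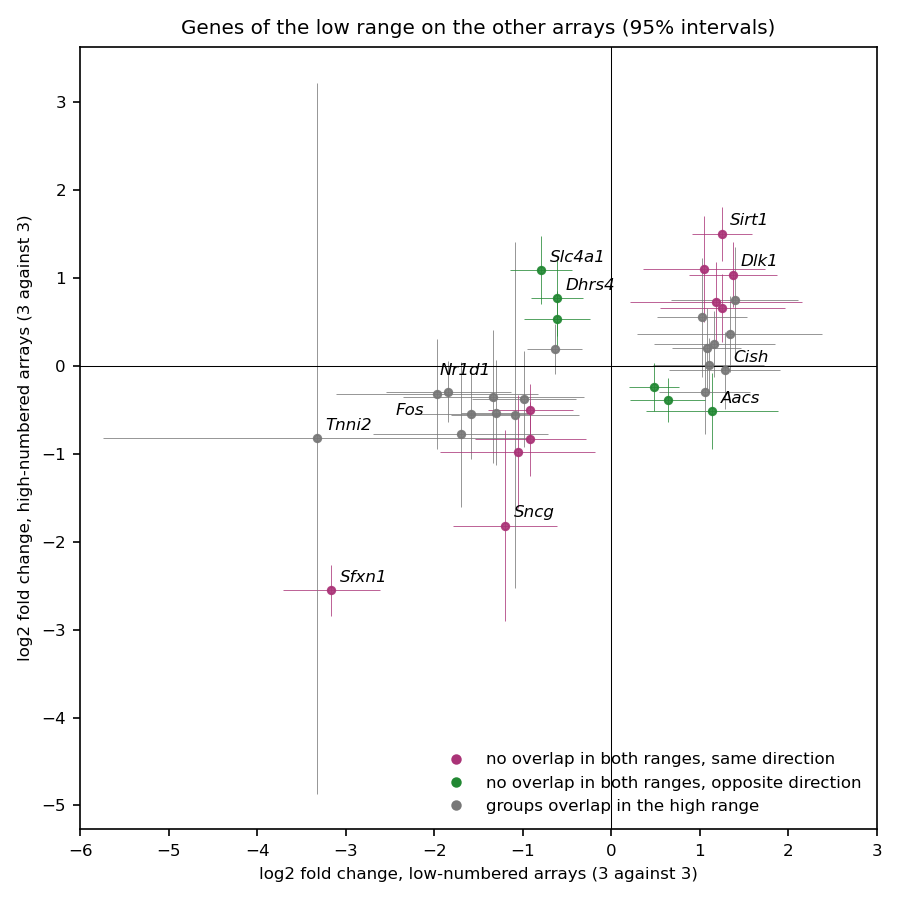
Log2 fold change, SIRT1tg minus WT, on the low-numbered arrays (horizontal axis) and on the high-numbered arrays (vertical axis) of the 14 highest, the 14 lowest and the 6 genes with the smallest p of the difference, with 95% intervals from limma and 3 arrays per group in each. Sirt1 and Sfxn1 lie far from 0 on both axes, Nr1d1 and Fos are near 0 on the vertical axis, and Slc4a1 and Dhrs4 have opposite signs.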

How the data were processed

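Per the labels' protocols, total RNA was extracted with Trizol, cleaned and treated with DNase, and labelled cRNA was hybridised to Illumina arrays. The submitters' processing notes name GenomeStudio, with no version. Per the file headers, the deposited table holds non-normalised mean bead intensity, which is linear. Beside each intensity the deposited table gives GenomeStudio's detection p-value. A further deposited table of processed intensity values was not used, since its columns carry no array number.

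The platform annotation gave 1 gene symbol to 23978 of 25697 probes, none to 1719 and several to 0. RefSeq held 23962 of these probes by gene identifier and changed 0 symbols. The 6 arrays were processed together by neqc (limma 3.58.1, R 4.3.3; offset 16), which corrects background and quantile-normalises, and were analysed as log2. The filter asked for a detection p below 0.05 on 3 or more of the 6 arrays, which 11704 probes met, 11037 of them named, and the probe with the highest mean stood for its gene, which gave 8226 genes, 2085 of them with several detected probes. Groups were compared with lmFit and eBayes, without covariates, with Benjamini-Hochberg adjustment over all 8226 genes; adjusted p-values of single genes are from this fit unless said otherwise. The difference between the number ranges is an interaction term over all 12 arrays. Number of arrays limits the precision, and folds of dim genes are compressed by background and offset. Quantile normalisation can also hide differences among the brightest genes.

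The 120 named genes are Sirt1, Sfxn1, Dlk1, Nampt and 8 anchors of brown fat, the 14 largest differences without overlap in each direction among genes detected on every array of the higher group, genes past the threshold, up to 4 non-overlapping members per list (for markers, up to 2 and the 2 brightest), and the 6 smallest p of the interaction. Other list members are named where a list is described. The arrays, the genes and the 37 lists were chosen with earlier results of these data known, so no p-value over a list is given. On data simulated from these 8226 genes with 200 changed, the code recovered 14.3% of log2 changes of 0.5, 91.4% of 1 and 99.9% of 2. The simulated noise was independent between genes and arrays, without shared differences such as the muscle signal. These shares therefore check the code and do not give the power of the real comparison. There Sirt1 (1.25), Dlk1 (1.37) and Lhfpl2 (-1.30) all missed the threshold. Alternatives were other background corrections, scalings, filters, probe rules and priors, array weights, the muscle signal as a covariate, a fit over all 12 arrays and leaving out each array. Leaving out WT 1 and WT 2 together was added after the data were seen.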

Additional observations from a re-analysis of the deposited data

Results flagged for a closer look

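Of the genes named by the rule, 7 had opposite genotype effects in the low and the high number range with no overlap between the groups in either. Only that of Slc4a1 passed limma's adjusted threshold for the difference, high minus low, at 1.89 on the log2 scale (-0.79 in the low and 1.09 in the high range, adjusted p = 0.0227). The other 6 missed it, with adjusted p between 0.252 and 0.581. Dhrs4, a carbonyl reductase, differed by 1.38 (-0.61 and 0.77), Crip2, a LIM-domain protein, by 1.14 (-0.61 and 0.54) and Acadl, a long-chain acyl-CoA dehydrogenase, by 0.851 (-0.45 and 0.40), all lower in SIRT1tg in the low range and higher in the high range. The value of Acadl is that of 1 of 3 detected probes, and the others gave 0.14 and 0.18 in the low range and overlapped. Aacs differed by -1.67 (1.14 and -0.51), Amotl2 by -1.02 (0.64 and -0.39) and Zcwpw1 by -0.712 (0.48 and -0.23), all higher in the low range and lower in the high range. Over all genes, 25 of 607 genes that were higher and 28 of 643 that were lower without overlap in the low range were so in the opposite direction in the high range.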

How the results depend on the processing

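The count of 1 gene past the adjusted threshold stayed at 1 under 7 of the 13 settings other than leaving out 1 array. It was 2 with median scaling and 2 with a trended robust prior (Sirt1 joined Sfxn1 in both), 5 in the fit over all 12 arrays (Sfxn1, Sirt1, Dlk1, Nr1d1 and Timp4), 7 with the muscle signal as a covariate (Sfxn1, C2, C4b, Col1a1, Cpxm1, Lcn2 and Serpina3n) and 6 without WT 1 and WT 2, where the lone WT 3 is assumed to vary like the SIRT1tg arrays. It was 0 with no detection filter, where 16593 genes were tested, 1306 had an unadjusted p under 0.05 and Sfxn1 had a limma adjusted p of 0.161. Leaving out each array gave 1 to 6, with 6 without WT 3 and 2 (Sfxn1 and Nr1d1) without SIRT1tg 2. Non-overlapping genes numbered 607 higher and 643 lower, and 428 and 617 with median scaling. They were 1035 and 1067 with no filter, 1370 and 1369 with the muscle signal regressed out, 2433 and 2237 without WT 1 and WT 2, and 943 to 1185 and 956 to 1170 without each array, counts that rise by construction where fewer arrays or more genes enter. Slc4a1, the 1 gene that differed between the ranges, was lost (0) without background correction, and leaving out each array gave 0 to 2, with 0 without WT 2, SIRT1tg 1 or SIRT1tg 3; the cause was not tested. Of 120 named genes 104 kept their direction under every alternative that measured them, 18 or 19 per gene. Of 37 list medians 21 kept theirs under all 19. The other medians lay near 0 or, for skeletal muscle, turned to 0.26 without WT 1 and WT 2. No paired analysis was possible because the columns carry no replicate number.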
